A study of Mus musculus with 9 samples.

Results

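The genes described here were chosen as surface or secreted markers of the hair follicle bulge. Cd34, Cd200, Gas1 and Ptprz1 encode cell-surface proteins, and Fgf18, Cxcl14 and Angptl7 encode secreted ones. They were taken by gene symbol from the deposited expression table, in which all 7 were found among 37980 rows. The bulge is the niche of hair follicle stem cells, which rest through most of the hair cycle, and it is recognised by surface proteins used to sort its cells and by signals that the cells send to themselves and to vessels, nerves and immune cells around them. Gas1 is a co-receptor for Hedgehog ligands, FGF18 is known in mouse skin for holding the follicle at rest, and in mouse hair follicle stem cells Angptl7 is known for keeping lymphatic capillaries close to the resting niche. The libraries came from CD49f-high CD34+ cells sorted from back and belly skin of male C57BL/6J mice that were 3, 19 or 24 months old. No allele, transgene or treatment is named for any of them, and each age had 3 libraries, numbered 1 to 3 at 3 and 19 months and 2 to 4 at 24 months. The labels do not say whether a library is 1 animal or a pool, so the p-values below measure only the spread between these libraries.

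Angptl7 had its lowest level and Cxcl14 its highest at 19 months; none of the 7 genes passed the test over the whole table, and these 2 passed in a second fit restricted to protein-coding genes. Mean Angptl7 was 1159.7 FPKM at 3 months, 267 at 19 months and 1791 at 24 months, while mean Cxcl14 was 123, 261 and 156 FPKM (sequenced fragments scaled by transcript length and library size). Gas1 was higher in every 19-month library than in any 3-month one, and Cd34, Cd200 and Fgf18 had means that differed by at most 1.4-fold between ages. Ptprz1 was at 1.71 FPKM or lower throughout.

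The sort by CD34 fixes a high Cd34 level, so that level is not a finding. Itga6, which encodes CD49f, lay between 72.7 and 117 FPKM, and Krt14, a keratin of basal keratinocytes, between 3235 and 6619 FPKM. Krt15, a defining bulge keratin, had a value of 0 in all 9 libraries. Krt5, which pairs with Krt14, had a value of 0 in the 3 libraries of 19 months and lay between 2160.4 and 7576 FPKM in the other 6. It is among the 36 rows listed at 0 in one age and at 5 FPKM or more in another. Those rows were left out of the protein-coding fit described below, and this 0 is not read as a loss of Krt5. Whether an exact 0 in these values means that a transcript was absent was not tested. The summed FPKM of protein-coding rows ran from 553388 to 738569 per library. Over all rows the sum was far less even, from 8.705e+06 in replicate 3 of 24 months to 6.877e+07 in replicate 1 of 3 months. It was 2.502e+07 or more in the 3-month libraries and 2.077e+07 or less in the other 6. Low values fell on steps worth 1 fragment, from which a depth of about 26100000 to 38800000 fragments per library was estimated. These steps had the same gene-by-gene sizes in 6 libraries, 2 of each age; replicate 1 of 19 months and replicate 2 of 24 months shared another set, and replicate 1 of 3 months stood alone. Running numbers in the sample descriptions set the 3-month libraries apart from the other 6. What they count is not stated, and anything tied to them cannot be told apart from the difference between 3 months and the later ages.

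The 7 genes kept nearly the same order of level within every library. Angptl7 stood first in all 6 libraries of 3 and 24 months, ahead of Cd200 and Cd34. Cxcl14 followed them there, then Gas1, Fgf18 and Ptprz1, which were the lowest 3 in this order in all 9 libraries. At 19 months Cd34 or Cd200 led, and Angptl7 stood next in 2 libraries and below Cxcl14 in replicate 3. Between neighbours, the libraries of Angptl7, Cd200 and Cd34 overlapped at 3 months, those of Cd34 and Cd200 and those of Angptl7 and Cxcl14 overlapped at 19 months, and no neighbours overlapped at 24 months.

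**Figure D1:**
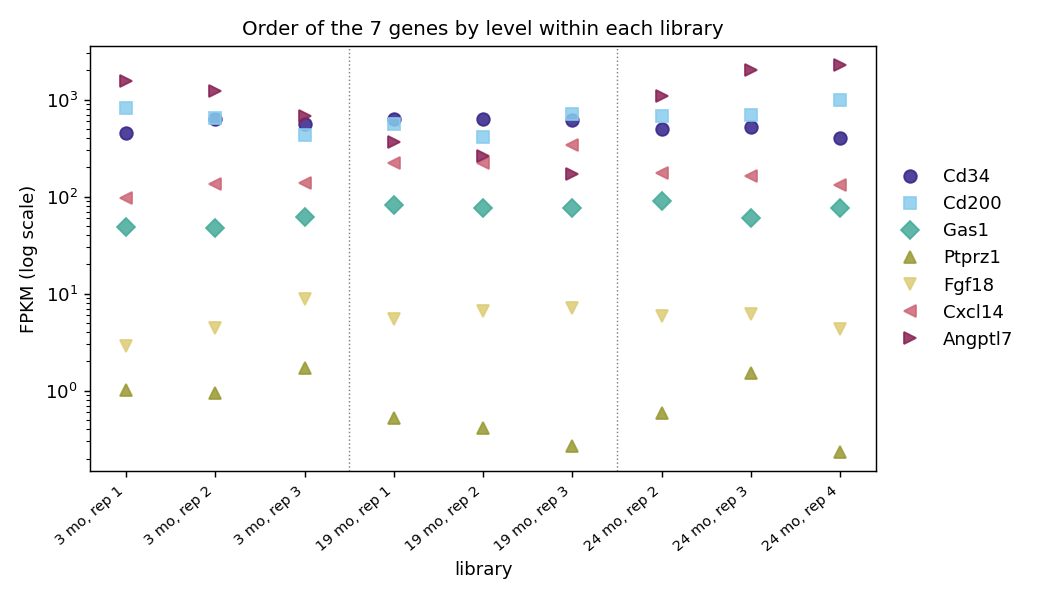
FPKM of the 7 genes on a log axis in each of the 9 libraries, with dotted lines between the ages. Angptl7 is the highest of the 7 in the 6 libraries of 3 and 24 months, from 673 to 2262 FPKM, and lies below Cd34 and Cd200 in the 3 libraries of 19 months.

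The 7 genes differed in how far libraries of one age stood apart. The SD of log2(FPKM + 1) between libraries of one age was 0.17 for Cd34, 0.21 for Gas1, 0.29 for Cxcl14, 0.35 for Ptprz1, 0.40 for Cd200, 0.42 for Fgf18 and 0.58 for Angptl7. The median protein-coding gene had 0.21, and Angptl7 stood at percentile 98.8 of that distribution. The estimated fragments behind Ptprz1 ran from 58.3 to 418 and gave a counting error of 4.9% to 13%, and those behind Fgf18 ran from 86 to 242 and gave 6.4% to 11%. For the other 5 genes it was at most 1.7%. These errors cover counting only.

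Changes with age were tested with limma on log2(FPKM + 1), in 1 model over all 9 libraries, with Benjamini-Hochberg adjustment over every row tested. Differences below are on this scale, which understates the change of genes with low values, Ptprz1 above all. The fit over the whole table tested 14275 rows that reached 1 FPKM in at least 3 libraries, and a second fit tested the 11509 protein-coding genes among them, without rows listed at 0 in every library of one age and at 5 FPKM or more in every library of another. All 7 genes were tested in both fits; Ptprz1 entered with exactly 3 libraries at 1 FPKM or more, of which 2 were from 3 months. The 3 comparisons share libraries in pairs and are not independent of each other.

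None of the 7 genes passed an adjusted p of 0.05 in the whole-table fit at any comparison. That fit called 0.28% of rows for 19 against 3 months, 0.203% for 24 against 3 months and 0.049% for 24 against 19 months. At an unadjusted p under 0.05 it held 4, 1 and 3 of the 7 genes, against 14%, 18.6% and 10.7% of all rows. In the protein-coding fit, Angptl7 and Cxcl14 passed for 19 against 3 months, where 1.56% of genes were called, none passed for 24 against 3 months, where 3.84% were called, and Angptl7 passed for 24 against 19 months, where 0.93% were called. Both also passed the test for any difference among the ages in that fit, where 4.54% of genes were called, with adjusted p = 0.000845 for Angptl7 and 0.0122 for Cxcl14. The libraries of 19 and 3 months did not overlap for 4 of the 7 genes, beside 21.4% of all rows tested, those of 24 and 3 months for none, beside 21.3%, and those of 24 and 19 months for 3, beside 17.3%.

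**Figure D2:**
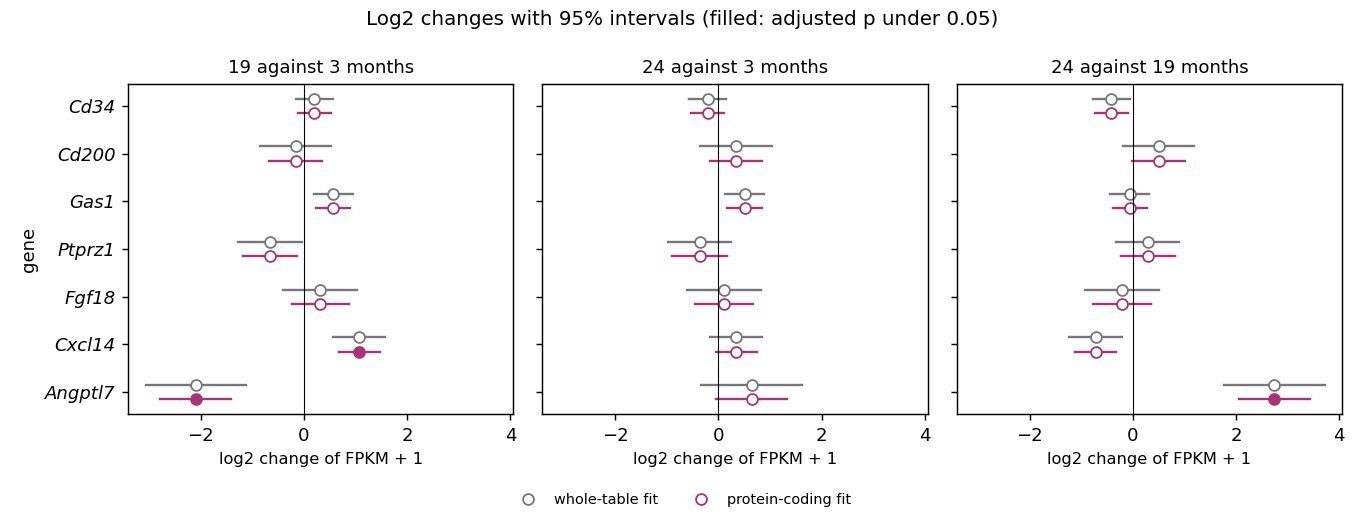
Log2 change of FPKM + 1 with its 95% interval for each of the 7 genes in the 3 comparisons, from the whole-table fit (grey) and the protein-coding fit (purple); a filled circle has adjusted p under 0.05. The filled circles are Angptl7 at -2.10 and Cxcl14 at 1.07 for 19 against 3 months, and Angptl7 at 2.74 for 24 against 19 months, all in the protein-coding fit.

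Cd34, a sialomucin of stem, progenitor and endothelial cells and the sort marker itself, measured 458, 626 and 561 FPKM in the 3 libraries of 3 months, 632, 628 and 619.9 at 19 months and 494, 519 and 403 at 24 months. The 19-month libraries had a mean of 626 ± 6 FPKM (SD, n = 3), and all 3 were above all 3 of 24 months, while the 3-month libraries overlapped both later ages. The difference of 24 from 19 months was -0.42 ± 0.15 (SE), with a 95% interval of -0.74 to -0.10 and adjusted p = 0.241 in the protein-coding fit and 0.405 in the whole-table fit. For 19 against 3 months the interval was -0.12 to 0.52, and for 24 against 3 months -0.53 to 0.11. Cd34 shares its locus with the antisense RNA Gm16897, at 10.4, 8.99 and 9.07 FPKM on average over the ages; whether the authors counted by strand is not stated. The genes closest to Cd34 in family were hardly present: podocalyxin (Podxl) and endoglycan (Podxl2) had means of at most 0.116 and 0.359 FPKM at any age. The adaptor Crkl, which binds CD34 inside the cell, had 5.24, 4.34 and 3.23 FPKM and did not pass at any comparison.

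The bases just upstream of Cd34 and of Angptl7, the gene with the largest change, are set out here for reference. They are the 250 bases before each start in RefSeq on GRCm38.p6, at chr1:194938571-194938820 on the plus strand for Cd34 and chr4:148500463-148500712 on the minus strand for Angptl7, with matches to the NFAT core GGAAA, or TTTCC on the other strand, in capitals.
Cd34: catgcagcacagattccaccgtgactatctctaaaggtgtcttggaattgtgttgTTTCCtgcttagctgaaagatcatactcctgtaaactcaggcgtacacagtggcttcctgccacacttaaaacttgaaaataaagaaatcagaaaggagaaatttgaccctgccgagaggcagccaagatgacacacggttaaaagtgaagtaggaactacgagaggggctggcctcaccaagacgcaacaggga
Angptl7: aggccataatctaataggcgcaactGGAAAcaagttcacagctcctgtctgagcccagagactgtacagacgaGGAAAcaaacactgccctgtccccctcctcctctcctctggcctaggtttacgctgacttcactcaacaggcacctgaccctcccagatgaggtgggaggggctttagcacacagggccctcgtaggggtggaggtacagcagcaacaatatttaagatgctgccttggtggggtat
The Angptl7 window held GGAAA at -225 and -177 and the Cd34 window held its reverse complement at -195, counted from the start. Of all 32851 RefSeq promoters of this length, 55.6% held the motif on either strand, so a match is common. Gas1 and Cxcl14 also held it, and Cd200, Ptprz1 and Fgf18 did not. None of the 7 windows held TATAAA (12.4% of promoters), CACGTG (6.02%), TAATTA (4.84%), ATCAAAG (3.21%) or ACAAAG (16.5%) on either strand. CCAAT (33.8%) was found in Gas1 at -68 and TGTTCT (16.1%) in Cxcl14 at -193. For Gas1 alone, the 40 bases compared after the start were not found near the start of a GENCODE transcript, so its positions are less certain. The share of G and C was 42.4% for Cd200, 46.4% for Cd34, 54.4% for Angptl7, 58.8% for Gas1, 59.6% for Cxcl14, 71.6% for Ptprz1 and 77.2% for Fgf18.

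Cd200 encodes a surface glycoprotein that quiets myeloid cells carrying its receptor. It measured 829, 642 and 428 FPKM at 3 months, 565, 409 and 708 at 19 months, and 674, 697 and 981 at 24 months. Every pair of ages overlapped, and the highest single library was replicate 4 of 24 months. The protein-coding fit gave -0.16 for 19 against 3 months (95% interval -0.67 to 0.35), 0.34 for 24 against 3 months (-0.17 to 0.85) and 0.50 for 24 against 19 months (-0.01 to 1.01), with adjusted p of 0.792, 0.441 and 0.411. The sign of the first depended on the libraries: it was 0.06 without replicate 1 of 3 months and 0.05 without replicate 2 of 19 months. The receptor gene Cd200r1 was at or near 0, with a mean of at most 0.00864 FPKM at any age.

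Gas1, a membrane-anchored co-receptor that helps Hedgehog ligands reach Patched, measured 48.2, 47.8 and 62.1 FPKM at 3 months and 81.2, 76.5 and 76.4 at 19 months. At 24 months it measured 90.7, 60.5 and 75.9 FPKM. The 19-month libraries all lay above the 3-month ones, and 1 of the 24-month libraries, replicate 3, fell inside the 3-month range. Gas1 differed by 0.57 ± 0.16 (SE) for 19 against 3 months, with a 95% interval of 0.24 to 0.90 and adjusted p = 0.0849 in the protein-coding fit and 0.224 in the whole-table fit. For 24 against 3 months the difference was 0.51, with an interval of 0.17 to 0.84 and adjusted p = 0.081. Without replicate 3 of 24 months this became 0.66 with adjusted p = 0.0341, so 1 library decides whether it passes. The 2 later ages differed by -0.06, with an interval of -0.39 to 0.27.

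Calls of related genes given from here on are those of the protein-coding fit, and of the family members and partners only Nrcam, at 24 against 3 months, was called in the whole-table fit too. Among 12 tested genes of Hedgehog signalling and of the GDNF receptor system to which Gas1 is related, 2 were lower and 1 was higher at 24 than at 3 months, with a list median of -0.32 beside -0.00 over all protein-coding genes. Boc, which acts as a Hedgehog co-receptor beside Gas1, fell: it measured 51.5, 46.9 and 39.2 FPKM at 3 months, 32.8, 29.2 and 30.4 at 19 months, and 26.3, 27.3 and 27.8 at 24 months. The later ages lay below every 3-month library, and the change was -0.73 ± 0.13 (SE) at 24 months, with adjusted p = 0.0101, while 19 against 3 months had adjusted p = 0.0518. Cdon, the other co-receptor, had means of 3.35, 2.87 and 3.07 FPKM and did not pass. The receptor Ptch1, itself a Hedgehog target, fell from 22.3 to 11.7 FPKM at 24 months (adjusted p = 0.0341), a call lost in 5 of the 9 fits that left out 1 library, with a highest adjusted p of 0.0997 without replicate 2 of 3 months. Boc kept its call in all 9 of these fits. Gli1 and Hhip, of the same list, did not pass at any comparison. Gfra2, a receptor for GDNF-family ligands whose fold Gas1 resembles, was the gene that rose, from 8.85 to 20.8 FPKM at 19 months and 18.7 at 24 months, with adjusted p of 0.0373 and 0.0486; each of these calls was lost in 6 of the 9 fits. Shh was at or near 0 in every age, with a mean of at most 0.00615 FPKM.

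Ptprz1, a receptor tyrosine phosphatase that binds pleiotrophin, midkine and tenascins, was the lowest of the 7 genes. It measured 1.02, 0.952 and 1.71 FPKM at 3 months, 0.526, 0.411 and 0.272 at 19 months, and 0.595, 1.54 and 0.235 at 24 months. All 19-month libraries lay below all 3-month ones, and the 24-month libraries spanned both, replicate 3 standing far above the other two. The difference of 19 from 3 months was -0.65 ± 0.25 (SE) with a 95% interval of -1.18 to -0.13 and adjusted p = 0.21 in the protein-coding fit, and 0.339 in the whole-table fit. The ratio of mean FPKM was 0.329, and with a pseudocount of 0.1 in place of 1 the log2 difference was -1.39, with adjusted p = 0.35 over the whole table. With a filter of 5 FPKM the gene was not tested.

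Among the partners of Ptprz1, the adhesion gene Nrcam and the matrix gene Tnc fell with age. Of 13 tested ligands, partners and paralogs, 2 fell at 24 against 3 months, Nrcam also at 19 against 3 months and Tnc at 24 against 19 months, and none rose in any comparison in the protein-coding fit. The list medians were -0.20, -0.28 and -0.25 for the 3 comparisons, beside 0.01, -0.00 and -0.02 over all protein-coding genes. Nrcam, a neural cell adhesion protein that Ptprz1 can bind, measured 11, 8.09 and 7.8 FPKM at 3 months, 3.42, 4.37 and 4.17 at 19 months, and 1.83, 2.1 and 2.62 at 24 months. No 2 ages overlapped. Nrcam fell by 1.64 ± 0.18 (SE) at 24 against 3 months, with adjusted p = 0.00106, and 0.0193 in the whole-table fit. Without rows listed at 0 the whole-table fit called 0 rows for this comparison, so Nrcam lost that call. Its fall at 19 months, -0.99, had adjusted p = 0.013, and 0.0771 without replicate 1 of 3 months. Tenascin-C (Tnc), a matrix ligand of Ptprz1, measured 26, 46.1 and 62.8 FPKM at 3 months and 7.58, 10.8 and 5.69 at 24 months, a fall of 2.30 ± 0.31 (SE) with adjusted p = 0.00197. Its difference of 24 from 19 months, -1.56, had adjusted p = 0.0311, a call lost in 4 of the 9 fits that left out 1 library, with a highest adjusted p of 0.161 without replicate 4 of 24 months. The ligand pleiotrophin (Ptn) was abundant, at 1174 ± 148, 1375 ± 209.9 and 1145 ± 78.6 FPKM (SD, n = 3), and midkine (Mdk) was near 1 FPKM; neither passed at any comparison. The paralog Ptprg, at 5.95, 4.66 and 4.63 FPKM, did not pass either.

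**Figure D3:**
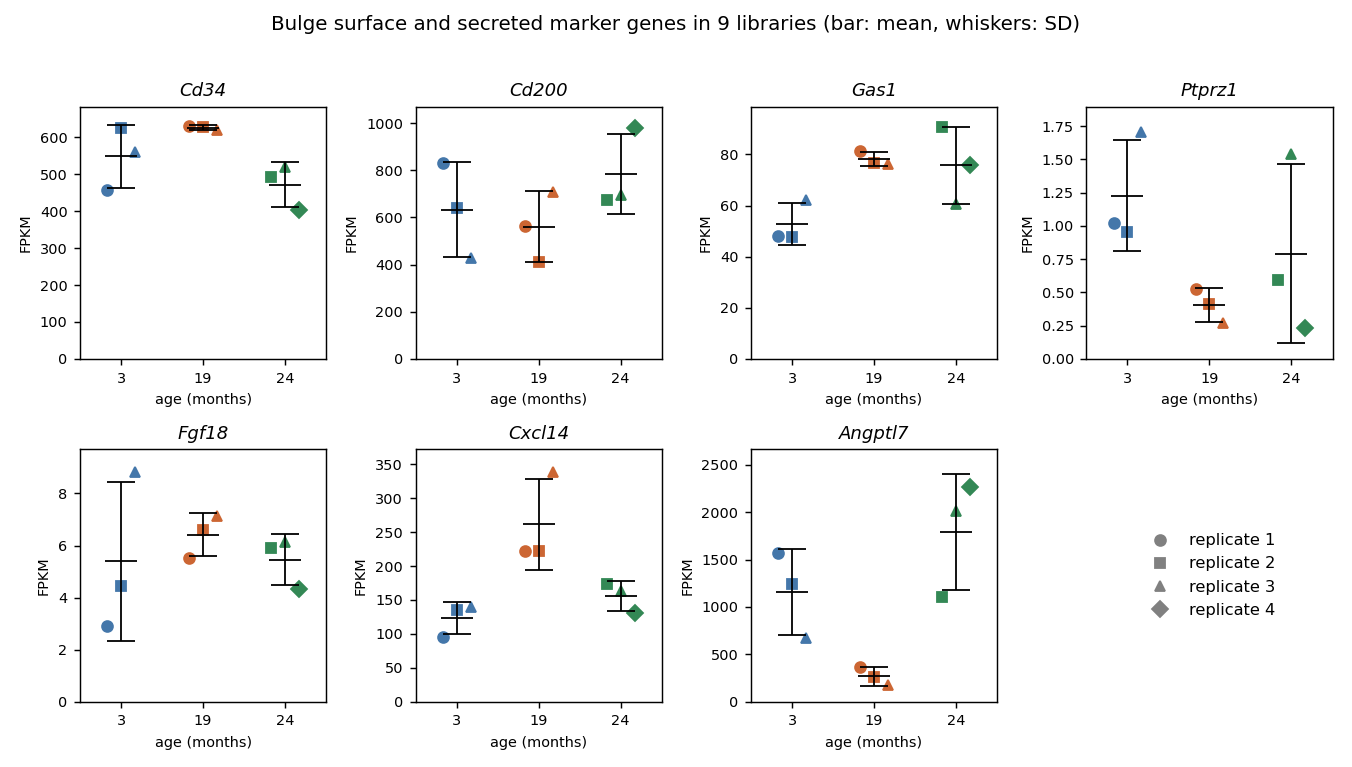
FPKM of the 7 genes in each library by age, with replicates by symbol, the mean as a bar and the SD as whiskers (n = 3); every axis starts at 0. Angptl7 has its lowest mean and Cxcl14 its highest at 19 months, 267 and 261 FPKM, and the 3-month libraries of Cd200, Fgf18 and Angptl7 are widely spread.

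Fgf18, a secreted growth factor that signals through FGF receptors and is known in mice for prolonging the resting phase of the hair cycle, measured 2.91, 4.44 and 8.82 FPKM at 3 months. It measured 5.52, 6.61 and 7.12 FPKM at 19 months and 5.9, 6.12 and 4.32 at 24 months. The 3-month libraries alone spanned the range of all 9. The differences were 0.31 for 19 against 3 months (95% interval -0.24 to 0.87), 0.11 for 24 against 3 months (-0.45 to 0.67) and -0.21 for 24 against 19 months (-0.77 to 0.35) in the protein-coding fit, with adjusted p of 0.602, 0.852 and 0.803. Leaving out 1 library moved the first from 0.01, without replicate 1 of 3 months, to 0.68, without replicate 3 of 3 months. Without replicate 1 of 3 months the difference of 24 from 3 months turned to -0.19.

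The receptor genes Fgfr1, Fgfr2 and Fgfr3 were at higher levels per length than Fgf18 itself, and none passed. Fgfr1 had 144 ± 15.8, 161 ± 22.3 and 189.6 ± 42.8 FPKM (SD, n = 3), Fgfr2 had 81.9, 66.3 and 71.6 and Fgfr3 had 76.1, 74.9 and 69.5. Fgfr4 was not tested: it lay between 0 and 26.7 FPKM at 3 months and at or below 0.103 at the later ages. Of 14 tested FGF genes, the calls fell on some of the feedback and target genes, while Etv5, Spred1 and Spred2 did not pass at any comparison. Spry2, an inhibitor of receptor signalling, fell from 69.5 FPKM to 28.1 at 19 months (-1.29, adjusted p = 0.0182) and 25.9 at 24 months (-1.41, adjusted p = 0.00906). The 19-month call was lost in 4 of the 9 fits that left out 1 library, with a highest adjusted p of 0.105 without replicate 1 of 3 months, and the 24-month call in none. Etv4, a transcription factor induced by FGF signals, fell at 19 months (-1.13, adjusted p = 0.0465), a call lost in 7 of the 9 fits. Spry1 and Dusp6, a phosphatase acting on ERK, rose from 19 to 24 months by 1.05 (adjusted p = 0.0108) and 1.31 (adjusted p = 0.0403). Spry1 lost the call in 3 of the 9 fits, those without replicate 2 or 3 of 19 months or replicate 4 of 24 months, and Dusp6 in 6. List medians were -0.26, 0.12 and 0.27 for 19 against 3, 24 against 3 and 24 against 19 months.

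**Figure D4:**
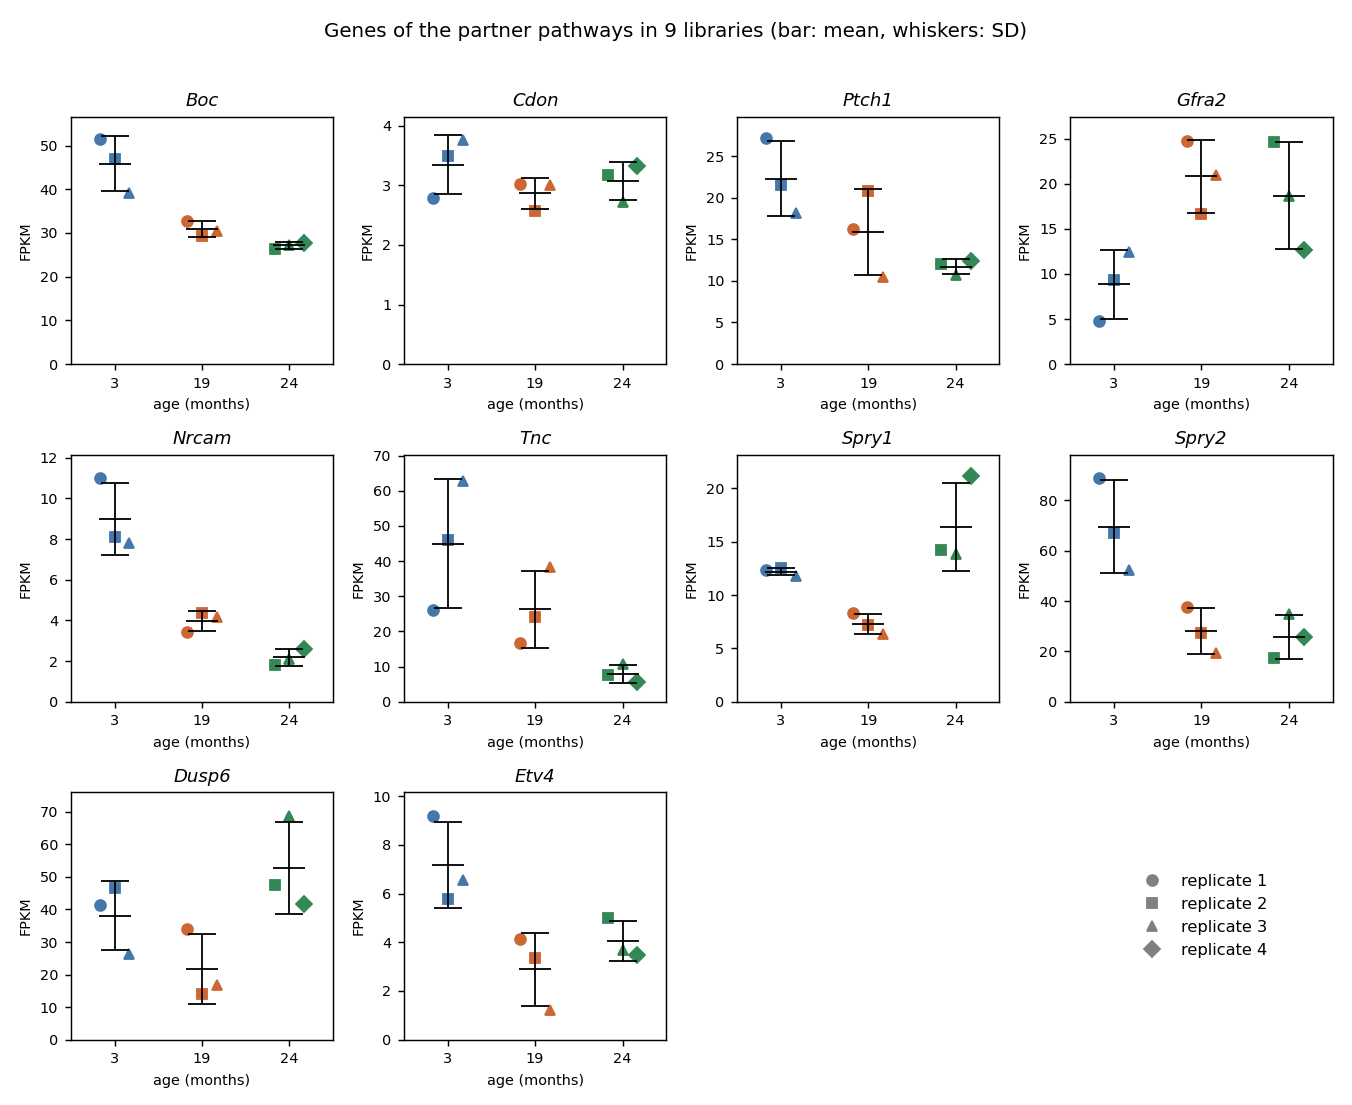
FPKM by age of the Hedgehog and GDNF-receptor, Ptprz1-partner and FGF-feedback genes named as passing in the protein-coding fit, with the Hedgehog co-receptor Cdon beside them, drawn as for the 7 genes. Boc, Ptch1, Nrcam and Tnc have their lowest means at 24 months, 27.1, 11.7, 2.18 and 8.02 FPKM, while Spry1 and Dusp6 have their lowest means at 19 months.

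Cxcl14, a chemokine made constitutively by skin epithelium, measured 96, 135 and 139 FPKM at 3 months, 223, 223 and 339 at 19 months and 174, 163 and 131 at 24 months. The 19-month libraries were above all others, and the 24-month libraries overlapped those of 3 months at 131 to 139 FPKM. The ratio of means was 2.12 for 19 against 3 months, and the rise was 1.07 ± 0.19 (SE) with a 95% interval of 0.67 to 1.47 and adjusted p = 0.00903 in the protein-coding fit; the whole-table fit gave 0.141. With a robust prior variance on the whole table, under which 0.504% of rows were called, adjusted p was 0.0475. Leaving out each library in turn, the adjusted p for 19 against 3 months in the protein-coding fit ran from 0.00806 to 0.0495, close to the threshold. For 24 against 19 months the difference was -0.72, with an interval of -1.12 to -0.32 and adjusted p = 0.0853. Within the 6 libraries that share low-value steps it was -0.91 with adjusted p = 0.0348. For 24 against 3 months it was 0.34, with an interval of -0.05 to 0.74.

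Of 15 other chemokine genes and receptors tested, none passed for 19 against 3 or 24 against 19 months, and 1 passed for 24 against 3 months in the protein-coding fit. That was Ccl27a, a chemokine of keratinocytes that draws skin-homing T cells, at 567 ± 26, 859 ± 201 and 888 ± 38.1 FPKM (SD, n = 3), with 0.65 and adjusted p = 0.0361, a call lost in 6 of the 9 fits that left out 1 library. Cxcl12 had means of 107, 106 and 108 FPKM, and its receptor Cxcr4, which Cxcl14 has been reported to bind, had 1.63, 2.26 and 1.24 FPKM; neither passed.

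Angptl7, a secreted angiopoietin-like glycoprotein, measured 1565, 1242 and 673 FPKM at 3 months. It measured 369, 259.6 and 173 FPKM at 19 months and 1102, 2009 and 2262 at 24 months. All 19-month libraries lay below all others, the highest of them at 369 against a lowest of 673 elsewhere, and the 3- and 24-month libraries overlapped. The highest library stood 13.1-fold above the lowest, the widest span of the 7 genes. The fall from 3 to 19 months was 2.10 ± 0.32 (SE) on the log2 scale, with a 95% interval of -2.79 to -1.41 and adjusted p = 0.00363 in the protein-coding fit; the whole-table fit gave 0.132. The rise from 19 to 24 months was 2.74 ± 0.32 (SE), with an interval of 2.05 to 3.43 and adjusted p = 0.00149, and 0.113 in the whole-table fit. Leaving out each library in turn, the adjusted p in the protein-coding fit stayed between 0.00197 and 0.0316 for the first and between 0.00031 and 0.0128 for the second.

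For 24 against 3 months Angptl7 differed by 0.65, with an interval of -0.04 to 1.33 and adjusted p = 0.26. It was 0.30 without replicate 3 of 3 months and 0.96 without replicate 2 of 24 months, neither passing. Within the 6 libraries that share low-value steps, in the protein-coding fit, this became 1.22 with adjusted p = 0.0337, while the other 2 differences were -2.10 (adjusted p = 0.00524) and 3.33 (adjusted p = 0.000275). Angptl7 lies inside the gene Mtor on the opposite strand. Mtor had means of 9.51, 7.76 and 7.52 FPKM and did not pass at any comparison, with adjusted p of 0.633, 0.469 and 0.952. Whether the authors counted by strand is not stated, and a part of Mtor reads in the Angptl7 values was not tested.

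Of 4 tested genes of the angiopoietin-like family and its target lipoprotein lipase (Lpl), none passed for 19 against 3 or 24 against 19 months. Angptl2 passed for 24 against 3 months, where it fell from 44.1 ± 4.39 to 27.3 ± 5.72 FPKM (SD, n = 3), -0.69 with adjusted p = 0.024, a call lost without replicate 2 or 3 of 3 months or replicate 4 of 24 months, up to 0.112. Angptl4, which in mouse hair follicle stem cells is known to rise on activation, had 2.14 ± 1.47, 6.26 ± 3.5 and 6.32 ± 6.09 FPKM and did not pass. Angptl1 had means of at most 0.463 FPKM.

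Angptl7 and Cxcl14 ran in opposite order among the 3 libraries of each age. In each age the library with the most Angptl7 had the least Cxcl14 and the library with the least Angptl7 had the most Cxcl14. At 19 months replicates 1 and 2 both had 223 FPKM of Cxcl14 after rounding, so their order rests on a smaller difference than the printed digits show. Over the 9 libraries, which fall into groups by age, Pearson's r of their log2 values was -0.84, and it was -0.80 for deviations from the age means. This pair was the most negative of the 21 pairs of the 7 genes, and it is named for that; Fgf18 with Angptl7 had -0.79 and Cd200 with Fgf18 -0.75 for the same deviations. The values share each library's scaling and are given as a description.

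The protein-coding gene whose log2 level was most like that of Angptl7 over the 9 libraries was Ifngr1, which encodes the interferon gamma receptor chain that binds the ligand. It measured 51, 41.4 and 37.7 FPKM at 3 months, 31.3, 26.4 and 22 at 19 months, and 44.5, 51.7 and 52.5 at 24 months, with r = 0.989 and Spearman's rho = 0.98. Its order of libraries was nearly that of Angptl7, over a narrower range. For Cxcl14 the closest gene was Gpx2, a glutathione peroxidase of epithelia, with r = 0.955 and means of 13.2, 31.7 and 14.6 FPKM, and the third was Dmkn, an abundant secreted epidermal protein, with r = 0.943 and means of 2809, 4838 and 3721 FPKM. For Gas1 it was Crabp2, which binds retinoic acid, with r = 0.972 and means of 15.2, 24.6 and 25.6 FPKM. The closest genes were 1700106N22Rik for Cd34 (r = 0.977), Farp1 for Fgf18 (r = 0.963), Itch for Ptprz1 (r = 0.953) and Gm166 for Cd200 (r = 0.928). Each is the highest of 11509 genes compared over 9 libraries.

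Of 25 other bulge secreted and matrix genes tested in the protein-coding fit, Ctgf, a matricellular protein, dipped at 19 months as Angptl7 did, with 145 ± 15.9, 67.5 ± 7.6 and 147 ± 22.3 FPKM (SD, n = 3), a fall of 1.10 (adjusted p = 0.00139) and then a rise of 1.11 (adjusted p = 0.00253). Vit, a matrix protein, was higher at both later ages, with 3.38 ± 0.717, 12.1 ± 2.79 and 10.3 ± 0.668 FPKM and adjusted p of 0.000496 and 0.00192. In the whole-table fit Vit had 0.0197 and 0.0446, and the second call was lost without rows listed at 0. Ctgf had 0.037 for 19 against 3 months in that fit and 0.0923 for 24 against 19 months. Npnt, Tnc and Vwa2 were lower at 24 than at 3 months, and Vwa2 lost this call in 2 of the 9 fits that left out 1 library. Of 17 tested surface and cytoskeletal genes, 4 passed, all lower at 24 against 3 months: Itgb6, Lgr5, Ptch1 and Cd24a. Ptch1 lost the call in 5 and Cd24a in 4 of these 9 fits, and Itgb6 and Lgr5 in none. Of 16 transcription factors, Sox9 and Nfatc1 were higher at 19 months and Gata6 and Id2 at 24 months, both against 3 months. Each of these 4 transcription factor calls was lost in at least 4 of the 9 fits that left out 1 library, and that of Id2 in all 9.

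Summed FPKM of marker lists for other cell types also moved with age, and their part in the results above was not tested. In bulk samples, fewer cells of a type and less RNA per cell cannot be told apart. The sum over 7 immune markers was 9.16 to 11.4 FPKM at 3 months, 3.92 to 5.61 at 19 months and 10.9 to 18.1 at 24 months, and that over 6 epidermal markers was 196 to 221, 134 to 153 and 183 to 293 FPKM. Both sums were lowest in the 3 libraries of 19 months, as Angptl7 was, but not every marker was: Ivl had 6.57, 9.09 and 8.79 FPKM on average and Lor 6.4, 8.44 and 11.3. Among the immune markers Cpa3 and Mcpt4, which define mast cells, were at 0 in all libraries. Most of the immune sum came from Fcer1g, with means of 3.7, 1.52 and 5.92 FPKM, and Cd3e, with 4.7, 2.78 and 6.94. Kit had its lowest mean at 24 months, with 0.525, 0.255 and 0.197 FPKM. The sum over 6 sebaceous markers was 59.4 to 78.1 FPKM at 3 months and 19.8 to 28.4 over the later ages. Endothelial markers, of which Cd34 itself is often counted as one, summed to 12.6 to 14.9, 10.1 to 10.8 and 5.64 to 7.49 FPKM. Ramp2, with means of 8.15, 5.55 and 3.99 FPKM, and Egfl7, with 4.86, 4.21 and 2.28, made up most of this sum. Both were lower at 24 than at 3 months, with adjusted p of 0.00697 and 0.0219 in the protein-coding fit. In the whole-table fit Ramp2 had 0.0334, a call lost without rows listed at 0, and Egfl7 had 0.0749. Egfl7 lost its protein-coding call in 4 of the 9 fits that left out 1 library. Means were at most 0.0241 FPKM for Cdh5 and 0.039 for Kdr. Sums for fibroblast markers were 5.99 to 8.75, 10 to 12 and 9.42 to 16.7 FPKM, and those for melanocyte markers 12.2 to 17.9, 6.54 to 8.45 and 4.19 to 9.2. Most of the fibroblast sum came from Col1a2, with means of 5.8, 10 and 8.98 FPKM, while Col1a1 had 1.11, 0.713 and 0.945. Dcn lay between 0.0207 and 3.18 FPKM at 24 months, and Col3a1, Lum and Pdgfra had means of at most 0.293 FPKM. Schwann cell markers stayed between 2.24 and 4.6, dermal papilla markers at or below 0.55 with Sox2 at 0, hair germ markers between 60.5 and 79.6, and inner bulge markers between 139 and 247 FPKM. Cdh3 made up most of the hair germ sum, with Shh at or near 0, and Krt6a made up most of the inner bulge sum.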

How the data were processed

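RNA of the sorted cells was sequenced in 9 libraries. The deposited values are FPKM per gene, which per the submitters' processing notes come from TopHat, Cuffdiff and mouse build NCBIM37; their versions, the annotation and the strand setting are not stated. From these values log2(FPKM + 1) was computed and fitted with limma 3.58.1 (R 4.3.3; trend, two-sided, Benjamini-Hochberg over all rows tested, threshold 0.05), on rows that reached 1 FPKM in 3 or more libraries. Gene types came from GENCODE M21 by Ensembl ID, for 32935 of 37980 rows, 20229 of them protein-coding; 36 rows listed at 0 in one age and at 5 FPKM or more in another were left out of the protein-coding fit. Fits were tested on simulated data. The 7 genes, the 20 lists of 210 related genes (209 found) and the protein-coding fit were chosen with earlier results of these data known. Named related genes are those that passed in either fit, direct partners and closest paralogs, with some that did not pass named beside them. The most similar genes are those with the highest Pearson r. Fragments were estimated from the low-value steps with an effective length 200 bases under the transcript length. Promoters were read from RefSeq tables of GRCm38.p6, a later build than that of the values. Some related genes are not reported here. No 2 libraries held identical values. Alternatives covered the rows fitted, prior, pseudocount, filter, scaling, libraries and replicate block; those on the low-value steps, and those pairing the protein-coding genes with left-out libraries or the block, were added after the data were seen.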

Additional observations from a re-analysis of the deposited data

How the results depend on the processing

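The direction of the Angptl7 and Cxcl14 differences between 19 months and each other age held in every alternative run, and the adjusted p of the whole-table fit passed the threshold for Cxcl14 at 19 against 3 months under a robust prior only. Under that prior Angptl7 passed the test for any difference among the ages, with adjusted p = 0.0452, where 1.06% of rows were called. Cxcl14 did not pass that test, with 0.0561. In the protein-coding fit Cxcl14 for that comparison was 1.07, within the 6 libraries that share low-value steps 1.0, and 1.07 with the step class as a term or with a replicate block. Angptl7 was -2.10 in all 4 of these fits, and for 24 against 19 months 2.74, 3.33, 2.74 and 2.80. Within those 6 libraries Angptl7 for 24 against 3 months was 1.22 and Cxcl14 for 24 against 19 months -0.91, both passing only there. Differences that turned sign, none of which passed, were Cd200 for 19 against 3 months and Fgf18 for 24 against 3 months within the 6 libraries, 0.04 and -0.25, in both the whole-table and the protein-coding fit. With each library left out in turn, Cd200 for 19 against 3 months ran from -0.41 to 0.06 (0.05 without replicate 2 of 19 months), Fgf18 for 24 against 3 months from -0.19 to 0.47 and for 19 against 3 months from 0.01 to 0.68, Cd200 for 24 against 3 months from 0.08 to 0.56, Angptl7 for 24 against 3 months from 0.30 to 0.96, Gas1 for 24 against 19 months from -0.20 to 0.09 and for 24 against 3 months from 0.37 to 0.66, Cxcl14 for 19 against 3 months from 0.87 to 1.17, and Angptl7 from -2.45 to -1.82 for 19 against 3 months and from 2.46 to 3.06 for 24 against 19 months. With a pseudocount of 0.1, Ptprz1 for 19 against 3 months was -1.39. The cause of these shifts was not tested.

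Counts of genes called depended on the rows fitted. For 19 against 3, 24 against 3, 24 against 19 months and any age, the whole-table counts were 40, 29, 7 and 32 and those of the protein-coding fit 180, 442, 107 and 523. A robust prior gave 72, 224, 27 and 152. Without rows listed at 0 the last 3 whole-table counts of limma were 0, 0 and 0, with 2630, 1504 and 2422 rows at an unadjusted p under 0.05. No filter gave 22, 8 and 17 for the first, second and last, and a filter of 5 FPKM gave 47 for the second. Scaling to the library median gave 19 and 14 for the first 2, and fitting only the 2 ages compared 20 for the first and 15 for the third. The step class as a term gave 15, 13 and 13 for the first, second and last, and the 6 libraries 52 and 63 for the third and last. Among protein-coding genes, the 6 libraries gave 126, 376, 307 and 522, and the step class as a term 200, 515, 100 and 519. With 1 library left out the whole-table counts ran from 9 to 37, 7 to 39, 7 to 22 and 14 to 33, and the protein-coding ones from 69 to 230, 136 to 456, 20 to 216 and 190 to 541. No pairing by replicate number was seen. Deviations of same-numbered libraries correlated at -0.07 to 0.10, and those of differently numbered ones at -0.08 to 0.12. With 3 libraries per age this check cannot show that pairing is absent. A replicate block gave 9, 13, 16 and 19 in the whole table and 253, 158, 110 and 352 among protein-coding genes. Of the genes described here, Ptprz1 and Fgf18 had the largest estimated counting errors. The part of these errors in the spread between libraries was not tested.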
